A study of Sus scrofa with 4 samples.

Results

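The caveolae coat genes comprised 8 protein-coding genes, chosen by name with earlier results of these data known: CAV1 and CAV2 for the caveolins, CAVIN1, CAVIN2 and CAVIN3 for the cavins, and EHD2, PACSIN2 and PACSIN3 for proteins of the neck and of membrane curvature. All 8 were listed, among 16192 protein-coding genes. They were followed in subcutaneous preadipocytes isolated from male Chinese Erhualian piglets 5 days old and differentiated in culture. The stages were confluent cells before induction (D0), cells after 2 days in growth medium with dexamethasone, 3-isobutyl-1-methylxanthine and insulin (D2), cells after a further 2 days in medium with insulin as the only added hormone (D4), and cells returned to growth medium until D8. For every stage, RNA of 3 piglets went in equal parts into 1 strand-specific, rRNA-depleted library. There were thus no replicates, a stage cannot be told apart from its library, and differences between stages could not be tested. Expression is given as FPKM (fragments per kilobase, taken relative to the total of each library), which is a level per length.

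Caveolae are flask-shaped pits of the plasma membrane. Caveolins insert into the inner leaflet of the membrane and assemble into a scaffold, cavins bind this scaffold from the cytoplasm as a peripheral coat, the ATPase EHD2 holds the neck at the cell surface, and PACSIN proteins sense and shape curved membrane through their F-BAR domain. Adipocytes are among the cell types richest in caveolae, which take part in fatty acid uptake and insulin signalling and unfold under membrane stretch, and loss of CAV1 or CAVIN1 causes lipodystrophy.

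Between D0 and D2, 5 of the 8 coat genes were at least 2-fold lower (10.1% of all reliably expressed protein-coding genes were) and 1 was at least 2-fold higher (6.67% of all were). At D8, 0 of 8 were at least 2-fold lower than at D0, a count near the share over all genes (3.68%). The caveolins and CAVIN3 were the members lowest relative to D0, at 10.4% (CAV1), 14.2% (CAV2) and 27.3% (CAVIN3) of it at D2. CAVIN2 went the other way and was 12.4-fold higher at D4 than at D0. The summed FPKM of the 8 genes was 794 (D0), 196 (D2), 256 (D4) and 673 (D8), that is 24.7%, 32.3% and 84.9% of D0 at the last 3 stages. In bulk RNA, fewer cells of a type and less RNA per cell cannot be told apart.

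The libraries held between 54128151 (D8) and 75387428 (D0) fragments behind the FPKM values, and the coat genes had between 457 fragments (CAVIN2 at D0) and 98478 fragments (CAVIN1 at D0). The 95% intervals given below come from these fragment numbers and cover only the error of counting, as pooling leaves the variation among piglets and among preparations unmeasured. All 8 coat genes were reliably expressed, defined as FPKM of 1 or more in 3 or more libraries, as were 9191 of the protein-coding genes. Log2 ratios were taken on log2(FPKM + 0.01), and genes are counted below where they were at least 2-fold higher or lower.

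CAV1, the caveolin that caveolae of non-muscle cells cannot form without, lies on chromosome 18 from 29648120 to 29682451 of Sscrofa11.1 on the minus strand. Its FPKM was 294 (D0), 30.6 (D2), 31.4 (D4) and 221 (D8). The level was thus high in the first and last libraries and low in the middle ones. Among the reliably expressed protein-coding genes it held rank 205 by level (D0), 1645 (D2), 1666 (D4) and 266 (D8). The log2 ratio was -3.26 between D2 and D0 (95% counting interval -3.30 to -3.22) and 2.82 between D8 and D4 (2.78 to 2.85). The first was the 46th lowest of 9191 ratios and the second the 27th highest.

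CAV2, which forms mixed oligomers with CAV1 and needs it to reach the plasma membrane, lies 16560 bases from CAV1 on the same strand, from 29699012 to 29707277. Its FPKM was 55.2 (D0), 7.87 (D2), 11.2 (D4) and 43.1 (D8), so that the same libraries were high and low as for CAV1. The log2 ratio of CAV2 was -2.81 between D2 and D0 (95% counting interval -2.89 to -2.73), 0.51 between D4 and D2 (0.42 to 0.61) and 1.94 between D8 and D4 (1.87 to 2.002). From D2 to D4, CAV1 had a log2 ratio of 0.03 (-0.02 to 0.09), which counting error alone could give and which became -0.04 and -0.06 under the 2 other scalings. The FPKM of CAV1 was 5.32 times that of CAV2 (D0), 3.89 times (D2), 2.79 times (D4) and 5.13 times (D8), so that the excess of CAV1 over CAV2 was smallest in the libraries in which both were low.

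CAVIN1, the cavin that the coat requires, lies on chromosome 12 from 20372476 to 20390250 on the plus strand. Its FPKM was 205 (D0), 69.4 (D2), 125 (D4) and 201 (D8). It was the most abundant coat transcript at D2 and D4, and it was already at 61.0% of D0 at D4, when CAV1 stood at 10.7%. The log2 ratio of CAVIN1 was -1.56 between D2 and D0 (95% counting interval -1.58 to -1.54), 0.85 between D4 and D2 (0.83 to 0.87) and 0.68 between D8 and D4 (0.67 to 0.70), so that neither of the later steps reached 2-fold. Its FPKM was 0.698 of that of CAV1 (D0), 2.27 times (D2), 3.99 times (D4) and 0.908 of it (D8).

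CAVIN3, which binds CAV1 and protein kinase C delta, lies on chromosome 9 from 3378144 to 3379851 on the plus strand. Its FPKM was 193 (D0), 52.8 (D2), 30.6 (D4) and 155 (D8). Unlike CAVIN1, its lowest level was at D4, and between D4 and D2 its log2 ratio of -0.79 (95% counting interval -0.86 to -0.71) was the 140th lowest of 9191. Relative to D0, the log2 ratio of CAVIN3 was -1.87 at D2 (-1.92 to -1.82) and -2.66 at D4 (-2.72 to -2.60). From D4 to D8 it was 5.06-fold higher. The ratio of CAVIN3 to CAVIN1 in FPKM was 0.941 (D0), 0.760 (D2), 0.245 (D4) and 0.772 (D8).

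CAVIN2, a cavin that binds phosphatidylserine and can drive membrane tubules, lies on chromosome 15 from 96476675 to 96490231 on the minus strand. Its FPKM was 1.87 (D0), 5.50 (D2), 23.3 (D4) and 16.1 (D8), the lowest level of the 8 coat genes at D0 and the fourth highest at D4. The log2 ratio of CAVIN2 was 1.55 between D2 and D0 (95% counting interval 1.39 to 1.72), 2.08 between D4 and D2 (1.99 to 2.18) and -0.53 between D8 and D4 (-0.60 to -0.47). Of 9191 ratios to D0, that of CAVIN2 was the 75th highest at D4 and the 66th highest at D8. CAVIN1 exceeded CAVIN2 in FPKM 109-fold (D0), 12.6-fold (D2), 5.36-fold (D4) and 12.5-fold (D8). CAVIN2 was the only coat gene that was at least 2-fold higher than at D0 in any later library, and it was so in all 3.

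**Figure D1:**
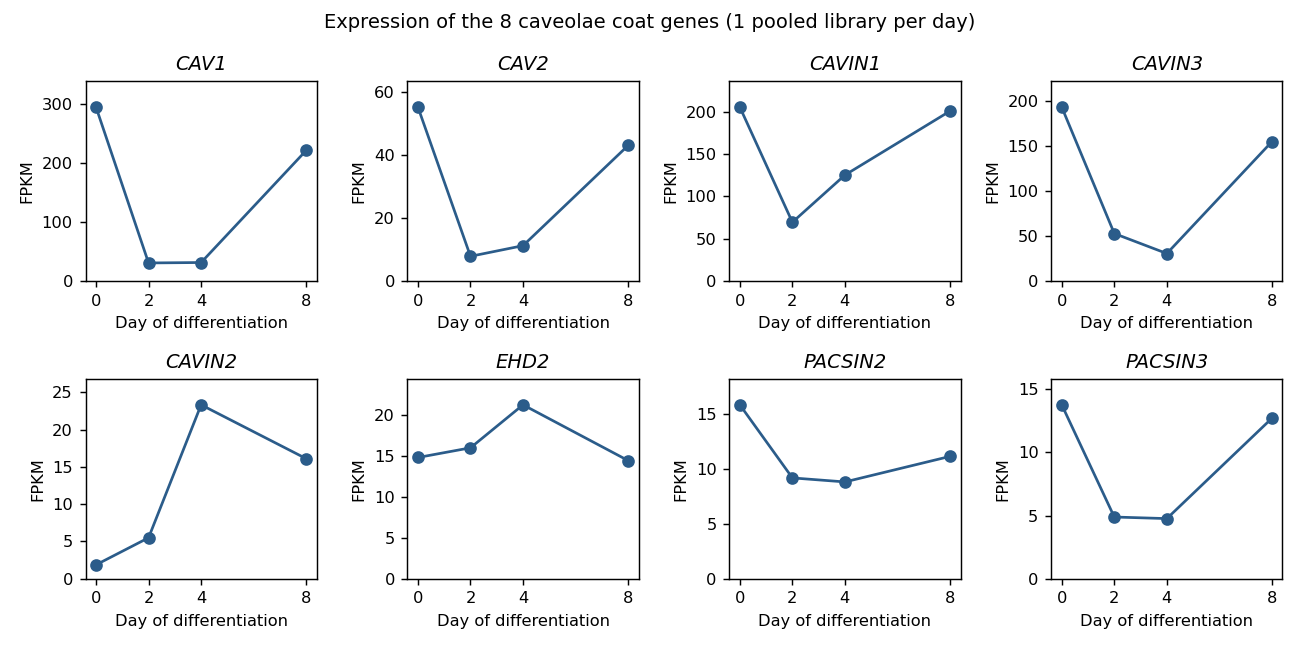
FPKM of each caveolae coat gene (vertical axes from 0, with a scale of their own) against the day of differentiation, with 1 point per pooled library and no error bars, since there were no replicates. CAV1, CAV2, CAVIN3 and PACSIN3 are high at D0 and D8 and low at D2 and D4, CAVIN1 is partly back at D4 (125 against 205 at D0), and CAVIN2 and EHD2 are highest at D4 (23.3 and 21.3).

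EHD2, the ATPase of the caveola neck, lies on chromosome 6 from 53423489 to 53442007 on the plus strand. Its FPKM was 14.8 (D0), 16.0 (D2), 21.3 (D4) and 14.5 (D8), the narrowest range of the 8 coat genes with a highest level 1.47 times the lowest. No log2 ratio of EHD2 reached 1 in either direction, and the most distant from 0 were 0.52 between D4 and D0 (95% counting interval 0.46 to 0.58) and -0.56 between D8 and D4 (-0.63 to -0.49). CAV1 exceeded EHD2 in FPKM 19.8-fold (D0), 1.91-fold (D2), 1.47-fold (D4) and 15.3-fold (D8).

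PACSIN2, the F-BAR protein that shapes the caveola neck and binds EHD2, lies on chromosome 5 from 5853377 to 5985174 on the plus strand. Its FPKM was 15.8 (D0), 9.17 (D2), 8.81 (D4) and 11.13 (D8). These levels were lower than at D0 in every later library but never by 2-fold, with log2 ratios of -0.79 at D2 (95% counting interval -0.86 to -0.71), -0.84 at D4 (-0.91 to -0.78) and -0.51 at D8 (-0.58 to -0.44). A lncRNA on the opposite strand, LOC110260619, overlapped the end of PACSIN2 by 1163 bases, and its FPKM did not exceed 0.257 in any library. Whether the reads were counted by strand is not given in the sources used here.

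PACSIN3, the paralogue of PACSIN2 best known from muscle, lies on chromosome 2 from 15380297 to 15389893 on the plus strand. Its FPKM was 13.8 (D0), 4.89 (D2), 4.76 (D4) and 12.7 (D8), with a log2 ratio of -1.49 between D2 and D0 (95% counting interval -1.59 to -1.40) and 1.41 between D8 and D4 (1.32 to 1.51). The 2 paralogues therefore differed in range, with PACSIN3 at 0.870 of the FPKM of PACSIN2 (D0), 0.533 (D2), 0.541 (D4) and 1.14 times its FPKM (D8).

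Between D2 and D0, the members at least 2-fold lower were CAV1, CAV2, CAVIN1, CAVIN3 and PACSIN3, that is 5 of 8, where 10.1% of all 9191 reliably expressed protein-coding genes were at least 2-fold lower. CAVIN2 was the 1 member at least 2-fold higher, against 6.67% of all genes, and 16.8% of all genes were so in one direction or the other. The median log2 ratio of the 8 members was -1.53, beside -0.03 over all genes. Between D4 and D0, which shares the D0 library, 4 of 8 members were at least 2-fold lower (CAV1, CAV2, CAVIN3 and PACSIN3, against 8.81% of all genes) and CAVIN2 was at least 2-fold higher (against 10.4%, and 19.2% for both directions). The median over the members was -1.19, beside 0.06 over all genes.

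Between D4 and D2, CAVIN2 was the 1 member at least 2-fold higher, where 4.24% of all genes were, and 0 of 8 members were at least 2-fold lower, where 0.838% were (5.08% for both directions). The members spread widely in this step, with a median log2 ratio of 0.22 (0.09 over all genes) and values from -0.79 for CAVIN3 to 2.08 for CAVIN2. Between D8 and D4, 4 of 8 members (CAV1, CAV2, CAVIN3 and PACSIN3) were at least 2-fold higher, where 4.43% of all genes were, and 0 of 8 were at least 2-fold lower, where 10.1% were (14.5% for both directions). The median over the members was 1.05. The 4 members at least 2-fold higher were those at least 2-fold lower at D4 than at D0, which the shared D4 library links. The median log2 ratio over all genes was -0.21 in this comparison and -0.18 between D8 and D0, and it moved to -0.0027 and -0.03 when the libraries were scaled by their median ratio. Measured from the median of all genes, the log2 ratios between D8 and D4 were 3.03 for CAV1, 2.15 for CAV2, 2.55 for CAVIN3, 1.63 for PACSIN3 and 0.89 for CAVIN1. Under median-ratio scaling, 591 genes were at least 2-fold higher and 546 lower in this comparison, instead of 407 and 928 with the deposited FPKM.

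Between D8 and D0, CAVIN2 was the 1 member at least 2-fold higher, where 3.6% of all genes were, and 0 of 8 members were at least 2-fold lower, where 3.68% were (7.28% for both directions). The median over the members was -0.22, beside -0.18 over all genes. With the median ratio, 405 genes were at least 2-fold higher and 208 lower, instead of 331 and 338. At D8, CAV1 stood at 75.1% of its FPKM at D0, CAV2 at 78.0%, CAVIN3 at 80.2% and PACSIN2 at 70.4%, all lower than at D0 under each scaling. CAVIN1 at 97.7%, EHD2 at 97.5% and PACSIN3 at 92.3% were lower on the deposited FPKM and slightly higher under median-ratio scaling, with log2 ratios of 0.12, 0.12 and 0.04. For EHD2 the counting interval on the deposited FPKM (-0.11 to 0.04) held 0. CAVIN2 remained at 8.59-fold its FPKM at D0.

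**Figure D2:**
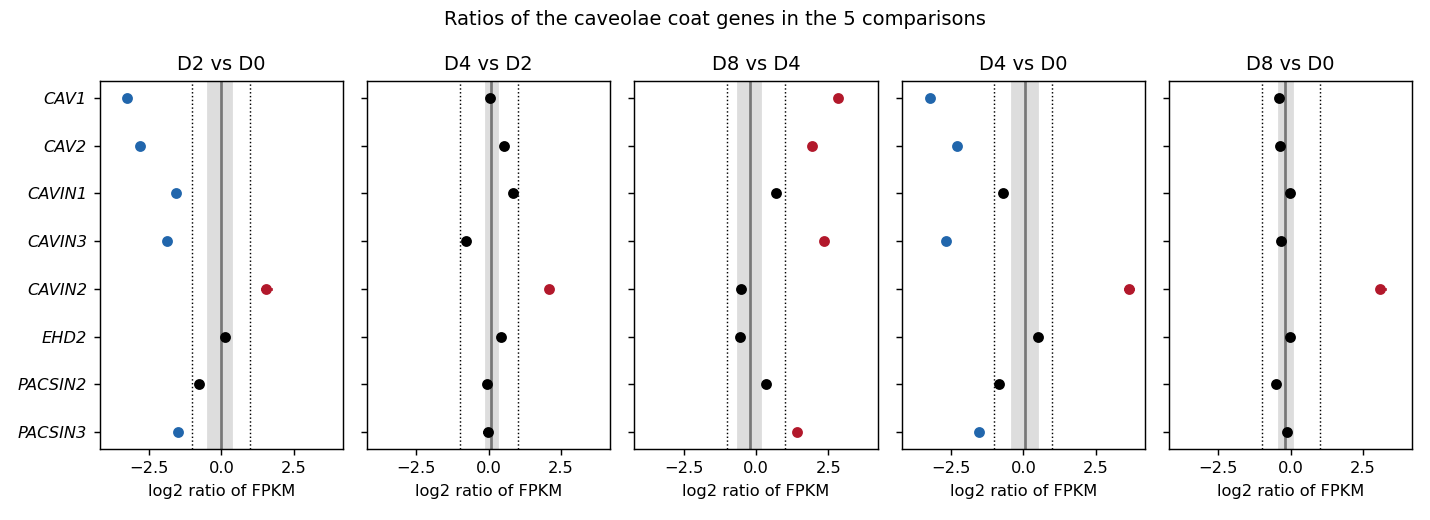
Log2 ratio of FPKM (horizontal axes) of each caveolae coat gene in the 5 comparisons, with bars for the 95% counting interval (mostly narrower than the points), dotted lines at 2-fold, a grey line at the median of the 9191 reliably expressed protein-coding genes and a grey band over the middle 50% of them. Blue points (at least 2-fold lower) fill the left of D2 vs D0 and D4 vs D0, red points (at least 2-fold higher) the right of D8 vs D4, and in D8 vs D0 CAVIN2 at 3.10 is the only gene beyond 2-fold.

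The order of the levels among the members changed with the stage. At D0 and D8 it began with CAV1, CAVIN1, CAVIN3 and CAV2, at D2 with CAVIN1, CAVIN3, CAV1 and EHD2, and at D4 with CAVIN1, CAV1, CAVIN3 and CAVIN2. Of the neighbours in these orders, CAV1 and CAVIN3 at D4 (30.6 to 32.1 and 29.4 to 31.8 FPKM as counting intervals) and CAVIN2 and PACSIN3 at D2 (5.16 to 5.85 and 4.61 to 5.18) overlapped within counting error.

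The caveolins made up 44.0% of the summed FPKM of the 8 genes (D0), 19.6% (D2), 16.6% (D4) and 39.2% (D8). The cavins made up 50.4%, 65.1%, 69.8% and 55.1%, and within them the share of CAVIN2 went from 0.236% of the 8 genes at D0 to 9.09% at D4. EHD2, PACSIN2 and PACSIN3 together made up 5.60% (D0), 15.3% (D2), 13.6% (D4) and 5.69% (D8). The transcripts of the scaffold were thus outnumbered by those of the peripheral coat most widely at D4.

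**Figure D3:**
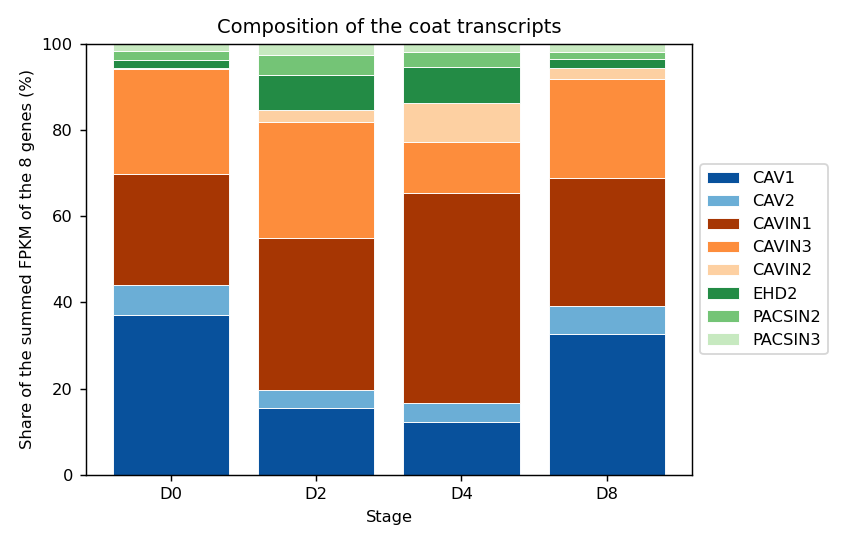
Share (%) of each caveolae coat gene in the summed FPKM of the 8 genes at each stage, 1 pooled library per bar. The blue part (CAV1 and CAV2) goes from 44.0% at D0 to 16.6% at D4 and back to 39.2% at D8, while CAVIN1 reaches 48.8% at D4.

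Related genes of the same families were set beside the members. Of 6 genes (CAV3, CAVIN4, EHD1, EHD3, EHD4 and PACSIN1), 5 were listed as protein-coding and 2 were reliably expressed, while CAV3 was not analysed here. EHD4, an endosomal relative of EHD2, had FPKM of 18.7 (D0), 4.33 (D2), 4.97 (D4) and 14.0 (D8), and its log2 ratio of -2.11 between D2 and D0 lay among those of the caveolins and cavins rather than near that of EHD2. EHD1, which acts in endocytic recycling, had FPKM of 9.07, 4.60, 5.48 and 7.03 at the 4 stages and did not reach 2-fold in any comparison. EHD3 did not exceed FPKM 1.23. The muscle cavin CAVIN4 did not exceed 0.0737, and the neuronal PACSIN1 did not exceed 0.00439.

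Of 12 partners of caveolae, 10 were reliably expressed. Between D2 and D0, 1 was at least 2-fold higher and 1 lower (6.67% and 10.1% of all genes were), with a median log2 ratio of -0.34. ROR1, a receptor that scaffolds CAV1 and CAVIN1, had FPKM of 0.454 (D0), 2.25 (D2), 2.16 (D4) and 1.12 (D8), and FLOT2, a flotillin of other membrane rafts, had 4.34, 1.84, 3.15 and 3.37. FLNA, the actin crosslinker that tethers CAV1 to stress fibres, had FPKM of 155 (D0), 81.8 (D2), 42.6 (D4) and 85.0 (D8). Its lowest level was at D4, as for CAVIN3, with a log2 ratio of -1.87 between D4 and D0. FLOT1, the other flotillin, was at least 2-fold lower in that comparison too (-1.02), and the tyrosine kinase ABL1 was at least 2-fold lower between D8 and D0 (-1.03). From D2 to D4 and from D4 to D8, 0 of the 10 partners reached 2-fold, where 5.08% and 14.5% of all genes did. With 10 genes, such counts do not set the partners apart from all genes. The endothelial genes NOS3 and PLVAP did not exceed FPKM 0.0132 and 0.153.

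The reliably expressed cargo that adipocyte caveolae are known to hold was higher than at D0 where most of the coat was lower, but it mostly stayed higher at D8. Of 6 genes 4 were reliably expressed. All 4 were at least 2-fold higher at D2 and at D4 than at D0, where 6.67% and 10.4% of all genes were. Their median log2 ratio was 4.65 at D4. SLC2A4, the insulin-responsive glucose transporter, had FPKM of 0.0924 (D0), 1.53 (D2), 8.80 (D4) and 7.58 (D8). CD36, the fatty acid transporter, had 3.90, 20.5, 63.1 and 54.7, and was thus above CAV1 in FPKM at D4 but not at D0, D2 or D8. INSR, the insulin receptor, had 1.11, 3.61, 5.68 and 1.39. LIPE, the hormone-sensitive lipase, had 0.808, 7.15, 31.9 and 10.3. Between D8 and D4, INSR and LIPE were at least 2-fold lower, where 10.1% of all genes were. The fatty acid transporter SLC27A1 was not reliably expressed and was lower than at D0 in every later library (FPKM 0.317, 0.152, 0.0766 and 0.168 at the 4 stages).

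The clathrin coat, the other main coat of plasma membrane pits, showed no such course. Of 20 genes 18 were reliably expressed, and between D2 and D0 their median log2 ratio was -0.05, with ITSN1 at least 2-fold higher (1.67) and CLTB at least 2-fold lower (-1.64). At D4 the median relative to D0 was 0.18, with the same 2 genes beyond 2-fold (1.99 and -1.75). Between D8 and D4 the median was -0.25, with CLTB at least 2-fold higher (1.04) and ITSN1 and HIP1 lower (-1.56 and -1.06). CLTB encodes a clathrin light chain and ITSN1 an endocytic scaffold. The clathrin heavy chain CLTC had FPKM of 83.8 (D0), 53.3 (D2), 59.2 (D4) and 60.9 (D8), and thus exceeded CAV1 in FPKM at D2 and D4 only. The summed FPKM of the 20 clathrin coat genes stayed between 632 and 724 while that of the caveolae coat genes ran from 196 to 794.

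The cell type was checked with marker lists. Of 12 adipocyte markers, 10 were reliably expressed. All 10 were at least 2-fold higher at D2 than at D0, where 6.67% of all genes were. Among them was ADIPOQ, which encodes adiponectin, with FPKM of 3.80, 29.6, 179 and 158 at the 4 stages. Between D8 and D4, where 4 coat genes were at least 2-fold higher, 8 of these 10 markers were lower and 2 higher, with a median log2 ratio of -0.91 beside -0.21 over all genes. There were 5 at least 2-fold lower (10.1% of all genes were), namely PCK1 (-3.13), CEBPA (-2.13), LIPE (-1.63), PLIN1 (-1.25) and PPARG (-1.01). The 2 higher were FABP4 (0.87) and GPD1 (0.05). CIDEC and PLIN4, the 2 markers that were not reliably expressed, were higher in this step too. CIDEC had FPKM of 5.01 at D4 and 54.6 at D8 (log2 ratio 3.44), and PLIN4 had 2.65 and 4.76 (0.84). The adipocyte markers thus went in both directions between D4 and D8. Of 10 listed fibroblast and preadipocyte markers 9 were reliably expressed, from COL1A2 (FPKM 1987 at D0) to PDGFRB, the lowest of them in every library (12.0 at D8). These 9 markers of mesenchymal cells were thus present at all 4 stages. Relative to D0, 8 were higher and 1 lower at D2, and 7 were higher and 2 lower at D4. Their median log2 ratio was 0.77 at D2 and 0.98 at D4, beside -0.03 and 0.06 over all genes. CD34 did not exceed 0.391, and DLK1 was not listed as protein-coding. The reliably expressed smooth muscle markers were low at D2 and D4, as the caveolins were, but not all came back as far by D8. At D8, 2 of the 5 reliably expressed ones were at least 2-fold lower than at D0 (3.68% of all genes were). These were DES (-3.61) and CNN1 (-1.96), and DES also fell further from D2 (37.7) to D4 (4.05). Of 7 smooth muscle markers 5 were reliably expressed (ACTA2, TAGLN, CNN1, LMOD1 and DES). Of these, 5 of 5 were at least 2-fold lower at D2 than at D0 (10.1% of all genes were). The same 5 were at least 2-fold higher at D8 than at D4 (4.43% of all genes were). The summed FPKM of the 7 was 6230 (D0), 667 (D2), 514 (D4) and 4826 (D8). The other markers, both low, took other courses. The smooth muscle myosin MYH11 had FPKM of 0.633, 0.350, 0.341 and 0.289 at the 4 stages, with no rise from D4 to D8. The pericyte marker RGS5 was highest at D4, with FPKM of 0.156, 0.142, 0.742 and 0.352. Whether the smooth muscle programme has a part in the course of the coat genes was not tested.

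**Figure D4:**
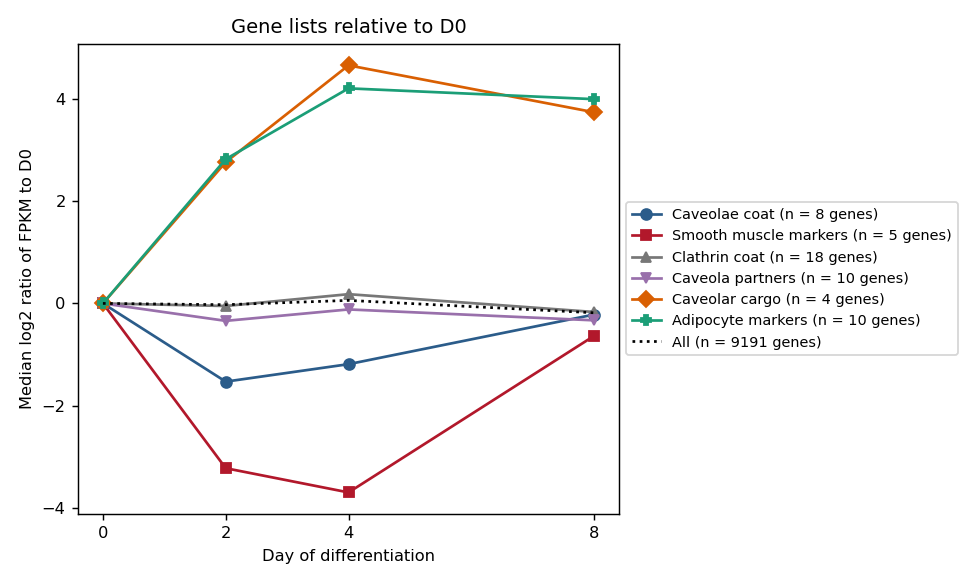
Median log2 ratio of FPKM to D0 (vertical axis, 0 at D0 by construction) of the reliably expressed genes of each list against the day of differentiation, 1 pooled library per day, with the 9191 reliably expressed protein-coding genes as a dotted line. The caveolae coat (-1.53 at D2, -1.19 at D4 and -0.22 at D8) lies between the smooth muscle markers (-3.22, -3.69 and -0.63) and the clathrin coat (-0.05, 0.18 and -0.17). The cargo genes and adipocyte markers, 2 lists that share LIPE, lie above.

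Endothelial cells, which are also rich in caveolae, left little trace. The 8 listed endothelial markers summed to FPKM between 1.42 (D2) and 2.82 (D0), most of it from PECAM1 (2.56 at D0), whereas CDH5, CLDN5, EMCN, ESAM, KDR, TEK and VWF did not exceed 0.222. Of the 4 listed skeletal muscle markers (MYOG, ACTN2, TTN and CKM) none exceeded 0.0764. Of the 5 listed leukocyte markers only CD14 was reliably expressed (at most 7.54). AIF1 reached 1.05 at D8, CD68 did not exceed 0.223, and PTPRC and CSF1R did not exceed 0.109. Among the 3 listed epithelial markers, KRT5 had FPKM of 44.4, 107, 180 and 275 at the 4 stages, whereas EPCAM and CDH1 did not exceed 0.904.

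The genes with the closest profiles were sought among 4084 reliably expressed protein-coding genes with a mean FPKM of at least 10, by the root mean square difference of log2 values centred over the 4 libraries. The closest to CAV1 were CCDC112 (0.05), TAGLN (0.05) and EMP3 (0.22). TAGLN, the actin-binding protein transgelin, had FPKM of 2767 (D0), 297 (D2), 277 (D4) and 1987 (D8). The closest to CAVIN1 were VCL (0.04), PPFIBP1 (0.13) and FERMT2 (0.15), and VCL, the focal adhesion protein vinculin, had FPKM of 83.8, 27.6, 53.1 and 80.0. Within the coat, CAV1 and CAV2 were 0.37 apart, CAV1 and CAVIN1 1.01 and CAV1 and CAVIN2 2.49. With 4 libraries, such a distance describes these libraries and no more.

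The coat loci gave few noncoding RNAs. There were 2 circRNAs within a coat gene on its strand. The first came from EHD2 (chromosome 6 from 53431186 to 53437099) with 6 junction reads at D4 (35.6 SRPBM, a signal in which junction reads are scaled by the mapped reads of the library) and was listed at 0 in the other libraries. The second came from PACSIN2 (chromosome 5 from 5964134 to 5966311) with 5 junction reads at D8 (42.0 SRPBM) and was likewise listed at 0 elsewhere. At such numbers, and with the authors' minimum of 2 junction reads, no difference between stages was detectable. Within 50 kb of the coat genes there were 5 lncRNAs, of which LOC110260620, 9177 bases beyond PACSIN2, was the only one above FPKM 1 in any library (1.47 at D4 and 1.05 at D8). None lay within 50 kb of CAV1, CAV2, CAVIN1, CAVIN2 or PACSIN3.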

How the data were processed

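RNA of 3 piglets per stage was pooled by the authors into 1 library each for D0, D2, D4 and D8. Reads were trimmed and aligned to Sscrofa11.1 with HISAT2 v2.0.5, per the submitters' processing notes. The authors deposited FPKM for mRNAs, lncRNAs and other genes, and for circRNAs (BWA-MEM and CIRI, at least 2 junction reads) a signal, SRPBM, in the same column. The annotation version, the counting tool and its use of strand are not given in the sources used here. Comparing FPKM of different genes assumes that the length used by the authors suits the isoform present.

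Fragment totals were computed from the deposited FPKM of tRNA and miRNA genes, whose span is their length. The shortest length in whole bases that turned the 4 FPKM values of a coat gene into whole fragments (within 0.001) was then searched from 100 to 12000 bases. In data simulated for D4 against D0 over 9191 genes, 191 of 200 genes gave the simulated numbers and 9 whole fractions of them. Fragment numbers and intervals (exact binomial for ratios, exact Poisson for levels) may thus be conservative. Junction reads were taken from the SRPBM step.

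Ratios used a pseudocount of 0.01, and genes needed FPKM of at least 1 in at least 3 libraries. The study's DEGseq test was not repeated, since it compares 2 libraries and not 2 stages. All 8 coat genes are named, with list genes at least 2-fold different in the comparison described (at most 4 per list), unexpressed genes of short lists, the defining cell markers and the 3 closest profiles to CAV1 and CAVIN1. A gene of the cargo list is not reported here. EHD1, CLTC, COL1A2 and KRT5 were named after their values were seen, as were further markers of the adipocyte, fibroblast and leukocyte lists. Other pseudocounts, scalings, filters and thresholds were tried as alternatives. The members and lists were chosen with earlier results of these data known. Chromosomes came from RefSeq (Sscrofa11.1), where 8 of 8 coat genes matched by symbol, start and end. Python 3.11.15, numpy 2.4.6, pandas 2.3.3, scipy 1.17.1 and matplotlib 3.10.9 were used.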

Additional observations from a re-analysis of the deposited data

How the results depend on the processing

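With 1 pooled library per stage, no library could be left out, and the spread between animals, cultures and preparations is unknown. No paired analysis was possible because each stage is 1 pool, so that the stages share fewer than 2 replicate numbers, and values of single piglets cannot be matched across stages, whether or not the same piglets served each stage. The alternatives were pseudocounts of 0.1 and 1, scaling to the protein-coding sum or by the median ratio, no filter on low values, and a 1.5-fold threshold. For the caveolae coat genes, none of the 40 log2 ratios crossed 2-fold under the first 5. Signs changed for CAV1 between D4 and D2 under both scalings (-0.04 and -0.06) and for 3 other ratios between D8 and D0 under median-ratio scaling (CAVIN1 0.12, EHD2 0.12 and PACSIN3 0.04). The shift was at most 0.06 with a pseudocount of 0.1, 0.55 with a pseudocount of 1 (CAVIN2, D4 vs D0, 3.08 instead of 3.63), 0.11 with the protein-coding sum and 0.21 with the median ratio. Counts of coat genes differed from those at 2-fold only at 1.5-fold, with 6 instead of 5 lower (D2 vs D0), 2 instead of 1 higher and 1 instead of 0 lower (D4 vs D2), 5 instead of 4 higher (D8 vs D4) and 6 instead of 4 lower (D4 vs D0).

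Counts in the other lists moved more. The counts given here, also those over all genes, changed by more than 1.5-fold, or from or to 0. Smaller changes are left out here, whereas every change was given for the coat genes. With a pseudocount of 1, partners at least 2-fold lower became 0 at D2 and 1 at D4 relative to D0 and 0 at D8, those higher at D8 became 0, and clathrin coat genes lower at D8 than at D4 became 1. With the protein-coding sum, partners lower became 1 (D4 vs D2) and 1 (D4 vs D0), and clathrin coat genes higher between D8 and D4 became 0. With the median ratio, partners lower became 1 (D4 vs D2) and 0 (D8 vs D0), partners higher between D8 and D4 became 2, and clathrin coat genes lower became 1 there. Without the filter, partners lower than at D0 became 3 (D2), 4 (D4) and 3 (D8) and partners higher between D8 and D4 became 1, family relatives lower than at D0 became 2, 2 and 1 and those higher became 2 between D4 and D2, 1 at D4 and 1 at D8 relative to D0, and cargo genes lower than at D0 became 1 at D2 and 1 at D4, with 1 higher between D8 and D4. At 1.5-fold, partners lower became 3 (D2 vs D0), 1 (D4 vs D2), 4 (D8 vs D4) and 2 (D8 vs D0) and partners higher 3 (D4 vs D2), 2 (D8 vs D4) and 2 (D4 vs D0), clathrin coat genes lower 4 (D2 vs D0), 4 (D8 vs D4) and 1 (D8 vs D0) and higher 1 (D4 vs D2), 4 (D4 vs D0) and 1 (D8 vs D0), and family relatives lower 2 (D2 vs D0) and 2 (D4 vs D0). The cause was not tested, apart from the added genes and the lower threshold that these alternatives bring by construction. Over all protein-coding genes, the numbers higher and lower without the filter were 2038 and 2755 (D2 vs D0), 2007 and 1013 (D4 vs D2), 1778 and 2702 (D8 vs D4), 2842 and 2379 (D4 vs D0) and 1702 and 1808 (D8 vs D0). At 1.5-fold they were 1434 and 1845, 1072 and 272, 912 and 2384, 2020 and 1609, and 636 and 1340 in the same order. A pseudocount of 1 gave 398 higher (D2 vs D0), 233 higher and 38 lower (D4 vs D2), 474 lower (D8 vs D4) and 173 lower (D8 vs D0), and the median ratio gave 546 lower (D8 vs D4) and 208 lower (D8 vs D0).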
